A study of Mus musculus with 12 samples.

Results

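The comparison was of H3K27me3, trimethylation of lysine 27 of histone H3, between cultured mesenchymal stem cells (MSCs) of old and young mice, over the autosomal regions in which the authors had called the mark. The members were all 27413 autosomal regions of the 28047 regions in the H3K27me3 table, the remaining 632 lying on chromosome X and 2 on chromosome Y. The 2 tables of the series, H3K27me3 and H3K27ac, held 59664 regions in all. MSCs are connective tissue progenitors with osteogenic, adipogenic and chondrogenic potential. The young mice were 3 to 5 months old and the old mice 18 to 22 months, and the cells of every group were cultured in αMEM with fetal bovine serum at 2% O2. Each group held 3 libraries, so 6 of the 12 libraries carried this mark. They were made by CUT&RUN, in which an antibody tethers a nuclease to the chromatin of permeabilised cells and the released DNA is sequenced. Strain, sex and the number of animals behind a library were not given in the sources used here, so p-values measure only the spread between these libraries, which may be technical.

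H3K27me3 is deposited by Polycomb repressive complex 2, whose catalytic subunit is EZH2 or EZH1, and is bound by Polycomb repressive complex 1. In differentiated and stromal cells the mark lies densely over CG-rich promoters of genes that direct other lineages, such as the Hox and other homeobox genes, and thinly over broad, gene-poor or silent domains. KDM6 demethylases remove it, and acetylation of the same lysine, H3K27ac, excludes it from a histone tail and marks active promoters and enhancers.

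Since CG-rich promoters are the best known sites of the mark, promoter sequences of some of the regions that changed are shown first. Each is the reference sequence of the 250 bases before a RefSeq start (GRCm38.p6), 5′ to 3′ on the strand of the gene, with CG dinucleotides in capitals. Meis2 (chr2:116064620-116064869, minus strand), a homeobox gene, and Fzd10 (chr5:128600856-128601105, plus strand), a Wnt receptor gene, lay in promoter regions that were lower in old MSCs. St6galnac3 (chr3:153725134-153725383, minus strand), a sialyltransferase gene with the same direction, was added after values were seen. So were Vmn1r50 (chr6:90107025-90107274, plus strand), a pheromone receptor gene, and Sorbs2 (chr8:45661743-45661992, plus strand), an actin-binding adaptor gene, whose promoter regions were higher in old MSCs. Promoter regions of Sstr1 (lower) and of Sfi1, Gm10800 and Hist1h2ak (higher) had smaller p than that of Fzd10 and are not shown. The sequences are therefore examples and do not stand for all changed promoters.
Meis2: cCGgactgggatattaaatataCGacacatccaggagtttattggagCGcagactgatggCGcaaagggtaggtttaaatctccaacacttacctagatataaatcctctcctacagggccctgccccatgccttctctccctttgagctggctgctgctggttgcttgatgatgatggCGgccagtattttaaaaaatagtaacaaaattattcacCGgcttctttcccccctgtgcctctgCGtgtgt
Fzd10: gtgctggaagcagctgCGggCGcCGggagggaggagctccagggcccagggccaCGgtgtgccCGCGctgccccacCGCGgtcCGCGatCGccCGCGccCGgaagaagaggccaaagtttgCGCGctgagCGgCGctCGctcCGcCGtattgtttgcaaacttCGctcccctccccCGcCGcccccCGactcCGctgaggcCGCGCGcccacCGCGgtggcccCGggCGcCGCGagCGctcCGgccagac
St6galnac3: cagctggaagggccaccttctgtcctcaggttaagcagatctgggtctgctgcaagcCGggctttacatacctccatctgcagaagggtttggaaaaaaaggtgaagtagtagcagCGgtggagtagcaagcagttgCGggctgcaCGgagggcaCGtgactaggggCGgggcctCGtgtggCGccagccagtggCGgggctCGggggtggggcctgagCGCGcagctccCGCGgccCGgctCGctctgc
Vmn1r50: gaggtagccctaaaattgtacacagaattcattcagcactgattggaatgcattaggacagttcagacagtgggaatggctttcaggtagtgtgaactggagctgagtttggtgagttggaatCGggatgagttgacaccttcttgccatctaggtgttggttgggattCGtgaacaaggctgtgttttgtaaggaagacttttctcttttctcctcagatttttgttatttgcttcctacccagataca
Sorbs2: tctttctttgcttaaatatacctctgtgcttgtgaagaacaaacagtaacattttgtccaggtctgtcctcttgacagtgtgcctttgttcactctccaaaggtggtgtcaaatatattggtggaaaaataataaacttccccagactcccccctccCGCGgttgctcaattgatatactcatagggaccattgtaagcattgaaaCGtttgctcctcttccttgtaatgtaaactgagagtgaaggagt
CG occurred 7, 37 and 16 times in the promoters of Meis2, Fzd10 and St6galnac3, and 2 and 3 times in those of Vmn1r50 and Sorbs2. Of all matched promoters, 63.9% held CG as often as that of Meis2, 3.46% as often as that of Fzd10, 39.3% as often as that of St6galnac3, 85.8% as often as that of Vmn1r50 and 79.4% as often as that of Sorbs2. CG reads the same on both strands, and sites were counted once.

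H3K27me3 libraries of young MSCs held 7268562 to 9947515 reads and those of old MSCs 3622108 to 9302321, with old replicate 2 the shallowest. The median autosomal region held 59 to 80 reads in young and 28 to 72 reads in old libraries. The share of reads in autosomal regions was 64.7% ± 2.48 in young and 57.6% ± 3.68 in old libraries (SD, n = 3). It was lowest in old replicate 3, at 53.4%, against 60.3% and 59.2% in old replicates 1 and 2. The part of this share in the results below was not tested. Values below are scaled so that the typical region is equal between libraries, and a fold change is therefore relative to that region. The identity of the cells was checked on marker genes: 7 of 7 MSC markers had an H3K27ac region over the transcription start site (TSS) and 0 of 4 muscle markers did, while all 4 muscle markers had an H3K27me3 region there. Reads come from all cells of a culture, so fewer cells with the mark and less of it per cell cannot be told apart. H3K27ac regions also lay over Cd68 and Csf1r among 6 blood and macrophage markers, and over Pecam1 among 4 endothelial markers. At Cd68 the mean scaled H3K27ac signal was 91.6, within the range of the MSC markers (11.4 to 304). H3K27me3 regions lay over 1 of the 7 MSC markers, Nt5e, and over 1 of the 6 blood and macrophage markers. Among regions over the TSS of these markers, Acta1, skeletal muscle actin, had the lowest log2 fold change of H3K27me3 (-0.54, adjusted p = 0.0903).

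The first question, given that the study asked how MSC chromatin changes with age, was how many regions lost or gained the mark with age, and where they lay. H3K27me3 was lower in old MSCs in 113 regions and higher in 22, by limma on log2(scaled signal + 0.5) with Benjamini-Hochberg adjusted p under 0.05. These were 0.492% of autosomal regions, 0.412% for those lower and 0.0803% for those higher. At an unadjusted p under 0.05, 8.63% of regions were lower and 5.26% higher. Quantile normalization gave 76 lower and 29 higher regions, and the signal as deposited gave 732 lower and 20 higher, with a median log2 fold change of -0.12 over all autosomal regions. With the main scaling that median was -0.01, and 48.98% of regions were higher. The groups did not overlap in any of the 135 called regions, against 19.1% of all autosomal regions. Without young replicate 1, 2 or 3 the calls numbered 11, 17 and 10, and without old replicate 1, 2 or 3 they numbered 174, 304 and 180.

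**Figure D1:**
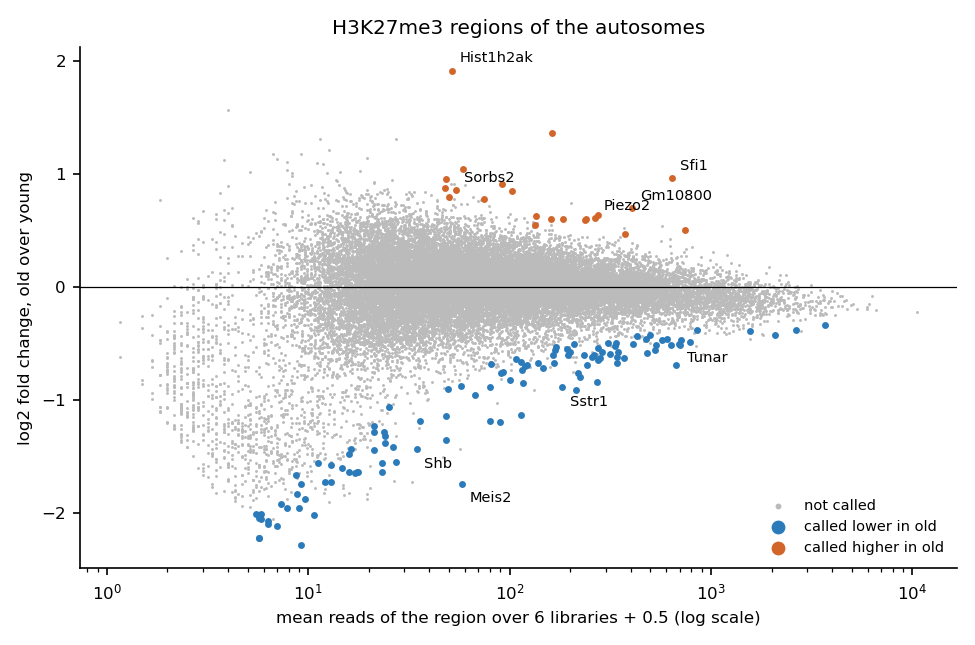
Log2 fold change of H3K27me3, old over young, of 27413 autosomal regions (vertical axis) against the mean number of reads in the region over 6 libraries plus 0.5 (horizontal axis, log scale). Points in blue are the 113 regions called lower, points in orange the 22 called higher, and grey points were not called. Names give the nearest genes of some regions.

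The regions that lost the mark were of 2 kinds. The first kind, 68 regions that the authors' state column assigned to both ages, were long and dense, with a median length of 30.75 kb, a median of 259 reads and a median log2 fold change of -0.60. Promoters were covered by 33 of these 68. The second kind, 45 regions assigned to young MSCs alone, were short, with a median of 2.5 kb, 14.2 reads and a log2 fold change of -1.64. Only 3 of those covered a promoter and 34 lay over 50 kb from any TSS. Regions of the young state were called by the authors as present in young libraries, so their direction is partly fixed by that step: of all 849 such autosomal regions 0.236% were higher in old MSCs, and their median log2 fold change was -1.24. Of the 113 lower regions, 17 held fewer than 10 reads on average. The 22 higher regions had a median length of 21.0 kb, and 9 covered a promoter.

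Among genes of transcription factors, Meis2 showed the clearest loss. Meis2 encodes a homeodomain partner of HOX and PBX proteins in limb and brain development. A 12 kb region over one of its starts (chr2:116056501-116068500) had a scaled signal of 20.3, 19.7 and 22.5 in young replicates 1 to 3, and of 6.99, 5.69 and 5.07 in old replicates 1 to 3. Every old library lay below every young library, a log2 fold change of -1.74 with SE 0.19 (adjusted p = 0.000176). The adjacent 7 kb (chr2:116068501-116075500) fell from a mean of 26.7 ± 4.72 in young to 11.4 ± 1.84 in old libraries (SD, n = 3), a log2 fold change of -1.19 (SE 0.17, adjusted p = 0.00365). In all, 4 called regions had Meis2 as the nearest gene, each of them lower. The 7 kb region had the state of both ages. The 12 kb region and the remaining called regions of Meis2 had that of young MSCs alone, so their direction is partly fixed by that step.

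Regions of Sstr1, Tbx3 and Fzd10 followed. Sstr1 encodes a receptor for the peptide hormone somatostatin. Its 18 kb promoter region (chr12:58206501-58224500) measured 56.1, 56.9 and 58.8 in young and 33.4, 31.3 and 27.6 in old libraries (log2 fold change -0.89, SE 0.12, adjusted p = 0.00131). A 19 kb region 2.67 kb from the start of Tbx3, a T-box repressor of limb and mammary development (chr5:119649001-119668000), measured 84.3, 87.7 and 76.9 in young and 56.97, 38.1 and 44.7 in old libraries (-0.84, SE 0.13, adjusted p = 0.0046). The 17 kb promoter region of Fzd10 (chr5:128593501-128610500), whose 37 CG dinucleotides are printed above, measured 70.5, 76.9 and 71.9 in young and 46.7, 42.7 and 45.96 in old libraries (-0.69, SE 0.10, adjusted p = 0.0046). In each of the 3 regions the old libraries lay apart from the young ones. Sstr1 stayed called without any single library, whereas Tbx3 and Fzd10 stayed called in 4 of the 6 fits that left out 1 library.

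Further regions that lost the mark lay at genes of organ formation, adhesion and signalling. Eya1, a phosphatase and coactivator of homeodomain proteins, had a mean signal of 104 ± 12.4 in young and 64.9 ± 4.41 in old libraries over 44.5 kb (SD, n = 3, log2 fold change -0.67, adjusted p = 0.00561). Eya2, its paralog, was 0.47 lower on the log2 scale over 58.5 kb (adjusted p = 0.0234), with 159, 177 and 161 in young and 119, 118 and 120 in old libraries. St6galnac3 fell by 0.52 on the log2 scale over 78.5 kb, and Tunar, a locus first described as a noncoding RNA of neural differentiation, fell by 0.51 over 70.5 kb. Opcml, an IgLON cell adhesion gene, fell by 0.89, Slc39a11, a zinc transporter gene, by 0.63, Plekhg1 by 0.58 and Shb, a signalling adaptor gene, by 1.44. The Shb region had the state of young MSCs alone, so its direction is partly fixed by the authors' calling of regions. Of the 12 named lower regions, Meis2 (12 kb) and Sstr1 were called in every fit without 1 library, and St6galnac3, Tunar, Opcml, Plekhg1 and Shb in 3 of 6.

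Regions that gained the mark were fewer and of another composition. The 17 kb region of Sfi1, a centrosome gene (chr11:3183501-3200500), measured 144, 116 and 98.9 in young and 211, 235 and 247 in old libraries (log2 fold change 0.96, SE 0.11, adjusted p = 0.000551). A 6.5 kb region over the gene models Gm10800 and Gm10801 (chr2:98661501-98668000) measured 84.7, 84.9 and 80.3 in young and 128, 138 and 139 in old libraries (0.69, SE 0.09, adjusted p = 0.00131). Both groups were apart in these regions. Reads there are hard to place: the Sfi1 region held 37.7 and the Gm10800 region 62.2 reads per kb, against a median of 5.74 over autosomal regions, and 44.7% and 45.5% of their bases were repeats, against a median of 23.8%. H3K27ac regions overlapped both, with log2 fold changes of 0.27 and 0.26 (adjusted p = 0.723 and 0.884). The part of repeats in these gains was not tested.

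A 117.5 kb region over V1ra8, Vmn1r50, Vmn1r51 and Vmn1r52, vomeronasal receptor genes for pheromones (chr6:90087001-90204500), measured 157, 170 and 165 in young and 236, 238 and 223 in old libraries (log2 fold change 0.50, SE 0.08, adjusted p = 0.0101). All 3 old libraries were higher. These genes are near-identical copies, so reads may have been divided among them. A 15 kb region over the histone genes Hist1h2ak, Hist1h2bn and Hist1h4k, each of which has close copies elsewhere, was at 1.91 on the log2 scale (adjusted p = 0.00287), with 4.15, 8.05 and 4.45 in young and 28.4, 14.2 and 24.1 in old libraries. The authors gave it the state of old MSCs alone, so its direction is partly fixed by that step.

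Gains outside these multicopy loci included Piezo2, Sorbs2 and Agtr1a. Piezo2 encodes a mechanosensitive ion channel, and its 34 kb promoter region measured 52.9, 59.2 and 60.2 in young and 80.1, 107 and 77.3 in old libraries (log2 fold change 0.60, SE 0.12, adjusted p = 0.0284). Sorbs2 had 2 higher regions, of which the 12.5 kb promoter region measured 10.7, 9.46 and 10.7 in young and 19.9, 19.3 and 17.8 in old libraries (0.85, SE 0.17, adjusted p = 0.0282). Near them lay the higher region with the smallest p (chr8:45782501-45825000). Its nearest gene, Pdlim3, was 60.5 kb away, beyond the 50 kb limit for named regions. That region measured 23.1, 23.5 and 31.6 in young and 59.2, 83.6 and 61.2 in old libraries (1.36, adjusted p = 0.000176). Its state was that of old MSCs alone, so its direction is partly fixed by that step. The promoter region of Agtr1a, the angiotensin II receptor gene, rose by 0.47 on the log2 scale (adjusted p = 0.0446). Ppp1r3b, which encodes a glycogen-targeting subunit of protein phosphatase 1, had 2 higher regions of 0.59 and 0.60. Cstf2t, a polyadenylation factor gene, rose by 0.95, P4ha2, a collagen prolyl hydroxylase gene, by 0.87 and Ly6c2, a monocyte surface protein gene, by 0.63, the last in a region of 63.9% repeats. Sfi1, the Gm10800 region and the histone region stayed called in each fit without 1 library, the Vmn1r, Cstf2t and Piezo2 regions in 3 of 6, and the other 6 named higher regions in 2 of 6.

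**Figure D2:**
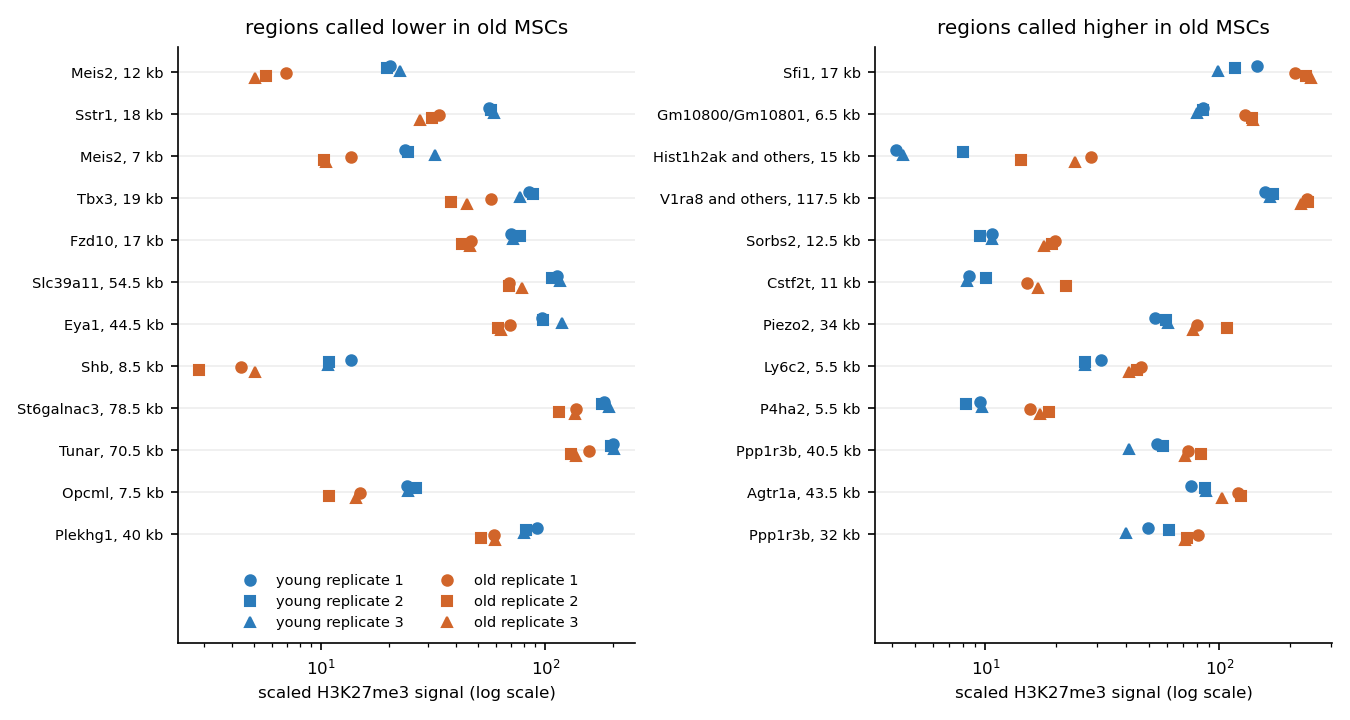
Scaled H3K27me3 signal (horizontal axes, log scale) of the 12 regions named as lower (left) and the 12 named as higher (right) in old MSCs, labelled by gene and length. Each point is a library, and the 3 old libraries lie apart from the 3 young libraries in all 24 regions.

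Some genes were the nearest gene of several called regions, often at a distance. Of 14 such genes, Efna5, an ephrin ligand gene, had 5, all lower and 312 to 1293 kb from its TSS. B230104I21Rik, Meis2 and Psapl1 had 4 each, all lower, at up to 84.9, 54.0 and 139.5 kb. Most of the regions of Efna5, Meis2 and Psapl1 had the state of young MSCs alone. Their shared direction is therefore partly fixed by the authors' calling of regions. Ppp1r3b and Sorbs2 were the genes with 2 higher regions. When the signal of all linked regions of a gene was summed (a region was linked to a gene if it covered a TSS or lay within 50 kb of the nearest one), 52 of 10935 genes were called, which is 0.476%. Of these, 33 were lower, in 30 distinct sums because neighbours can share a region, and 19 were higher, in 13 distinct sums. Some calls were added at the level of the gene: Sall1, a zinc finger gene of kidney and limb development, was 189, 188 and 193 in young and 158, 143 and 149 in old libraries (log2 fold change -0.34, adjusted p = 0.0413). Npy2r, a neuropeptide Y receptor gene, measured 37.0, 36.2 and 36.2 in young and 22.8, 21.3 and 25.4 in old libraries (-0.65, adjusted p = 0.0267). Cysltr2, a leukotriene receptor gene, rose by 0.41 (adjusted p = 0.0382). These 3 genes were chosen after their values were seen. Without young replicate 1, 2 or 3 there were 12, 20 and 19 called genes, without old replicate 1 there were 177 and without old replicate 2 there were 111.

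The next question was which functional groups of genes lost or gained the mark beyond single regions. The groups were 32 gene lists, each described by its linked regions beside all 15636 linked regions, of which 47.7% were higher and whose median log2 fold change was -0.01. The lowest medians belonged to lists of developmental transcription factors and adhesion genes, and the highest to protease inhibitors, cartilage genes and chemosensory receptors. Lists are described by counts and medians only, since regions of a list are not replicates. Groups that did not overlap were not particular to lists with large medians. This also held for axon guidance genes (median -0.02) and for blood and macrophage markers (-0.03).

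Homeobox genes outside the Hox clusters direct the identity of body parts and cell types. Of their 152 linked regions 133 were lower, with a median log2 fold change of -0.19. At an unadjusted p under 0.05, 42.8% were lower, against 8.67% of linked regions. Regions of this list held a median of 635 reads, against 82.5 over all linked regions. The 7 called regions, all lower, belonged to Meis2 (3 regions), Irx2, Irx3, Isl1 and Barx2. The 234.5 kb region of Irx3, an Iroquois gene (chr8:91745001-91979500), measured 593, 565 and 627 in young and 479, 449 and 397 in old libraries (-0.43, adjusted p = 0.0243). Isl1, a LIM homeobox gene of motor neurons and heart, measured 151, 157 and 151 in young and 129.9, 100.1 and 86.2 in old libraries (-0.56, adjusted p = 0.0387). In both regions every old library was below every young one. Irx2 was 0.46 lower and Barx2 0.50 lower on the log2 scale. Over the 152 regions, the median deviation of a library from the mean of the 6 libraries was 0.04, 0.11 and 0.16 in young and 0.01, -0.03 and -0.26 in old replicates 1 to 3. The groups did not overlap, but old replicate 3 lay far below the other old libraries, and old replicate 1 close to young replicate 1. Over the 94 promoter regions of the list the groups overlapped, with young replicate 1 and old replicate 1 both at 0.02. Relative to all linked regions the median was -0.18, and -0.12 without old replicate 3.

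Other developmental lists had medians on the same side. The 12 Hox regions had a median of -0.19 (9 lower, 0 called by limma, 5 lower and 0 higher at an unadjusted p under 0.05), with a 16.5 kb region of Hoxc4 at -0.49 (adjusted p = 0.145). The 50 regions of basic helix-loop-helix lineage genes had a median of -0.15, with 40 lower and 0 called by limma, and 14 lower and 1 higher at an unadjusted p under 0.05. At that threshold 41.7% of Hox and 28.0% of basic helix-loop-helix regions were lower, against 8.67% of linked regions. Those higher were 0% and 2.00%, against 4.87%. Atoh1, a gene of hair cell and cerebellar granule neuron fate, was at -0.50 (adjusted p = 0.0738), and Tcf21, a mesenchymal factor of kidney and heart, at -0.41 (adjusted p = 0.0740). Forkhead, Sox, T-box and GATA genes had a median of -0.08 over 109 regions, with 3 called lower at Tbx3, Gata2 and Sox2 and 0 higher. Gata2, a factor of blood stem cells, measured 72.1, 60.2 and 71.9 in young and 51.5, 33.6 and 33.6 in old libraries (-0.80, adjusted p = 0.0232). Sox2, a pluripotency and neural gene, fell by 0.39 on the log2 scale over 110 kb (adjusted p = 0.0449). In that last list the groups overlapped, whereas for linked regions of Hox and basic helix-loop-helix genes they did not. Old replicate 3 lay lowest in both. Old replicates 1 to 3 were at -0.11, -0.06 and -0.31 for Hox and at 0.01, -0.02 and -0.18 for basic helix-loop-helix genes. The lowest young library was at 0.05 and 0.02. Over the 6 Hox promoter regions the groups overlapped.

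Signalling ligands direct patterning and growth between cells. FGF and hedgehog ligand genes had a median of -0.15 over 36 regions, with Shh at -0.33 and Fgf5 at -0.30 (adjusted p = 0.108 and 0.115). Wnt ligands and inhibitors had a median of -0.07 over 45 regions, and BMP, GDF and TGF-beta genes one of -0.04 over 47. In this order, 8, 9 and 6 regions were lower and 1, 3 and 5 higher at an unadjusted p under 0.05, which is 22.2%, 20.0% and 12.8% lower against 8.67% of linked regions, and 2.78%, 6.67% and 10.6% higher against 4.87%. Relative to all linked regions the FGF and hedgehog list was at -0.14, and at -0.03 without old replicate 2. The single call among these 3 lists was a 248.5 kb region that covered Bmp7, a bone morphogenetic protein gene, together with Rae1 and Spo11. It measured 727, 759 and 747 in young and 610, 545 and 560 in old libraries (-0.38, adjusted p = 0.0259). Without old replicate 3 the BMP list was at -0.001 relative to all linked regions.

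Cadherins and protocadherins, which join cells by calcium-dependent adhesion, had a median of -0.17 over 62 regions, with 52 lower. Cdh4, R-cadherin, measured 28.4, 27.2 and 29.3 in young and 18.8, 15.9 and 15.2 in old libraries (-0.75, adjusted p = 0.0282), and Fat3, a giant cadherin gene, 143, 119 and 148 in young and 106, 95.5 and 95.4 in old libraries (-0.46, adjusted p = 0.043). These were the 2 calls of the list. Deviations were 0.07, 0.08 and 0.12 in young and -0.06, -0.13 and -0.09 in old libraries, so here no single library stood apart. The median relative to all linked regions ranged from -0.16 to -0.11 over 21 alternatives.

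Ion channels and neurotransmitter receptors carry the signals of excitable cells. Sodium and calcium channels had a median of -0.12 (68 regions), potassium channels of -0.09 (127 regions) and glutamate and GABA receptors of -0.05 (61 regions). Limma called 0 of these, while at an unadjusted p under 0.05 there were 8, 26 and 15 lower and 1, 4 and 3 higher regions. The lower ones were 11.8%, 20.47% and 24.6% of their lists, against 8.67% of linked regions. Among amine, acetylcholine and neuropeptide receptors, Sstr1 was the 1 called of 124 regions, and the median was -0.06. Axon guidance genes had a median of -0.02 (100 regions, 0 called, 15 lower and 3 higher at an unadjusted p under 0.05).

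Lists of MSC fates and of other cell types were small. The 12 osteogenic regions had a median of -0.04 that changed sign relative to all linked regions in 4 of 21 alternatives, and Msx2, a homeobox gene of skull bone, had the smallest p with -0.53 (adjusted p = 0.0827). The 11 adipogenic regions had a median of -0.12, with a 23.5 kb region of Pparg, the master regulator of fat cells, at -0.50 (adjusted p = 0.162). The 24 chondrogenic regions had a median of 0.09 with 16 higher, but the groups overlapped, with old replicate 3 at -0.04. Acan, which encodes the cartilage proteoglycan aggrecan, had 0.53 (adjusted p = 0.108) and Epyc, epiphycan, 0.66 (adjusted p = 0.197). Endothelial markers had a median of -0.13 (28 regions, 23 lower), with Sox17 at -0.46 and Emcn at -0.45 (adjusted p = 0.0826 and 0.109), and muscle genes of -0.08 (55 regions), among which the 1 call was the higher region of Sorbs2. In the osteogenic, adipogenic, chondrogenic and endothelial lists 0 regions were called by limma. At an unadjusted p under 0.05 they held 4, 2, 2 and 5 lower and 0, 0, 5 and 0 higher regions. In this order 33.3%, 18.2%, 8.33% and 17.9% were lower, against 8.67% of linked regions. The higher ones were 20.8% of the chondrogenic list, against 4.87% of linked regions. The 14 regions of senescence and cell cycle inhibitors included Cdkn2a, which encodes p16 and p19ARF and is a known Polycomb target, at -0.36 (adjusted p = 0.222).

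Polycomb and demethylase genes, the writers, readers and erasers of the mark, had a median of -0.11 over 17 regions. Relative to all linked regions it was -0.10, and -0.03 without old replicate 3. Limma called 0 of them, and 1 was lower and 1 higher at an unadjusted p under 0.05. Each was 5.88% of the list, against 8.67% lower and 4.87% higher among linked regions. Rnf2, the catalytic subunit of Polycomb repressive complex 1, was at 0.44 and Phf19, an accessory subunit of repressive complex 2, at -0.32 (adjusted p = 0.182 and 0.237).

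The lists of chemosensory receptors and of serpins with kallikreins had medians above 0. Of 215 regions linked to odorant, pheromone and taste receptors 143 were higher, with a median of 0.08, and the Vmn1r cluster was the 1 called region. At an unadjusted p under 0.05, 16 were higher, or 7.44% against 5.26% of autosomal regions. A 25.5 kb region of Olfr13 and Olfr437 was at 0.61 (adjusted p = 0.0610). Serpins, which inhibit proteases, and kallikreins had a median of 0.12 over 51 regions, with 38 higher and 0 called by limma, and 6 higher and 1 lower at an unadjusted p under 0.05. These were 11.8% higher and 1.96% lower, against 4.87% and 8.67% of linked regions. Serpinb6e was at 0.71 (adjusted p = 0.143). For both lists the old libraries lay above the young ones, at 0.04, 0.04 and 0.08 against 0.01, -0.04 and -0.08 for chemosensory receptors. Zinc finger genes (268 regions) had a median of 0.00, solute carriers (357 regions) of -0.02, chemokines and interleukins (115 regions) of 0.01, and lectin-like and related immune receptors (57 regions) of 0.05. Calls among these were Slc22a23, an organic ion transporter family gene, at -0.34 over 287.5 kb (adjusted p = 0.0455), Slc39a11, given above, and Klrg1, an inhibitory receptor gene of lymphocytes. The Klrg1 region, of 1.5 kb and the young state, held a mean of 6.83 reads and was at -1.93 (adjusted p = 0.0455), against the direction of its list. Collagens were at -0.06, keratins at -0.02, cytochrome P450 and related genes at -0.01, MSC surface markers at 0.01, blood and macrophage markers at -0.03 and histone genes at -0.13.

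**Figure D3:**
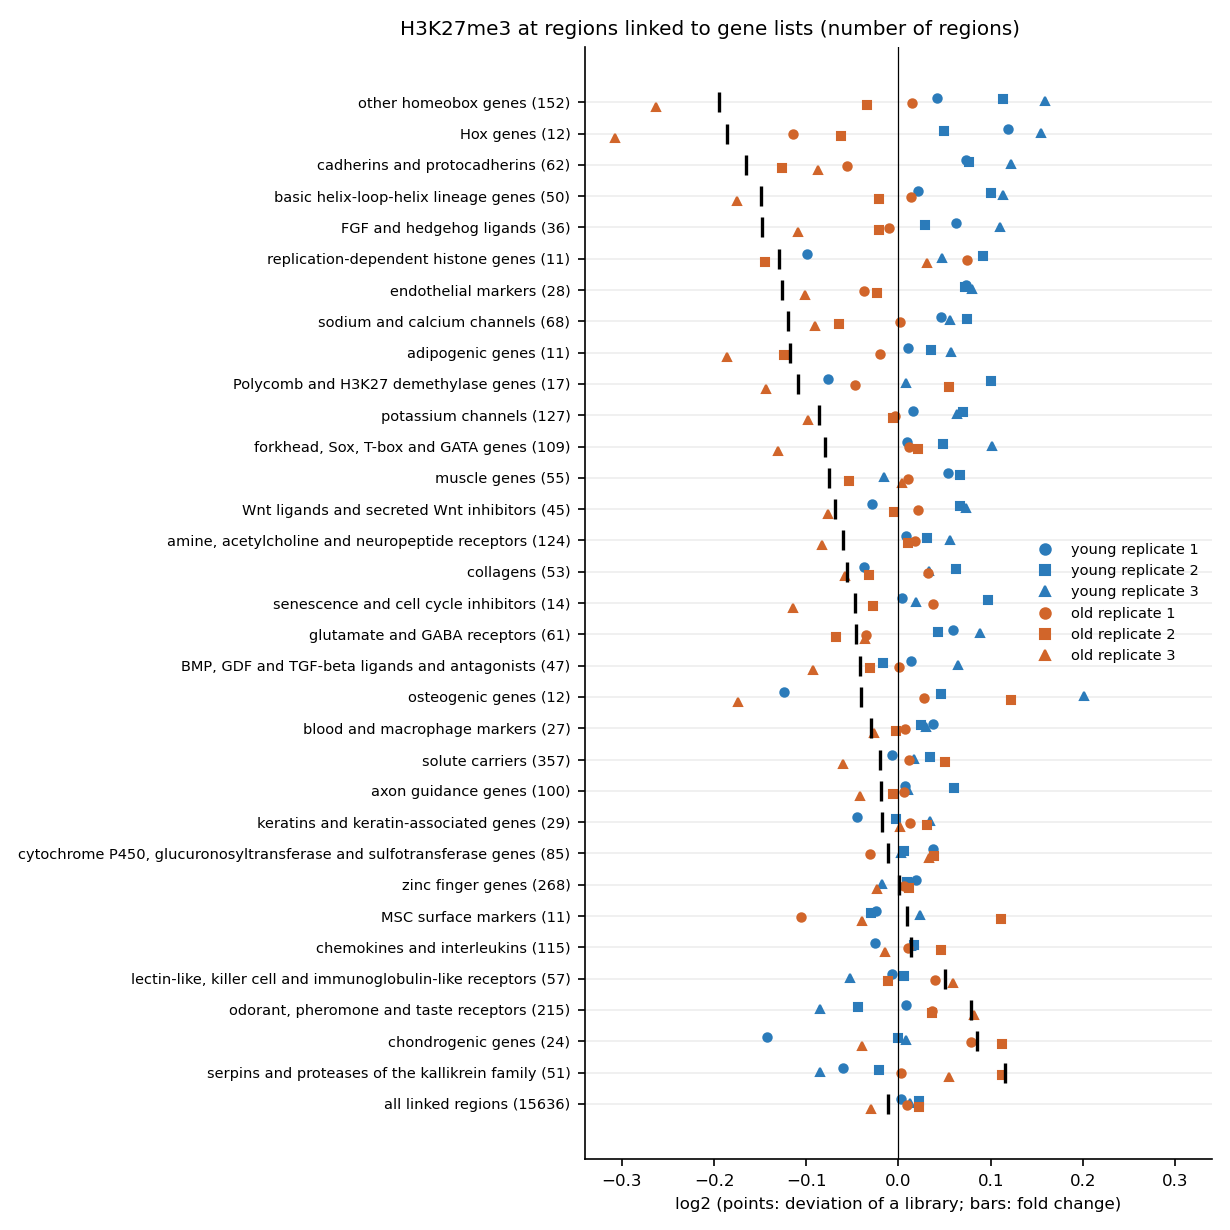
Gene lists, with the number of linked regions, ordered by the median log2 fold change of H3K27me3, old over young (black bars). Points give for each library the median deviation from the mean of the 6 libraries (log2). Homeobox genes lie lowest at -0.19 and serpins with kallikreins highest at 0.12.

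CG counts were then compared between promoters of these groups. In the 250 bases before a start, the 28 genes with a promoter region called lower had a median of 17 CG, and 82.1% had at least 10, against 47.3% of 5228 genes with any promoter region and 56.0% of 15680 autosomal genes matched to RefSeq. The 4 matched genes with a promoter region called higher had a median of 1 CG, and 0% reached 10. Promoter regions called lower numbered 36 and those called higher 9. Most of the 9 had no matched gene, so the CG content of gained promoters is known only in part. Homeobox genes had a median of 16.5 CG, chemosensory receptors of 1 and serpins with kallikreins of 2. Over promoter regions of matched genes the median log2 fold change was -0.02 with 0 to 4 CG, -0.06 with 5 to 9, and -0.09 both with 10 to 19 and with 20 or more. GC content of the whole region went along with this: the fifth of regions poorest in GC had a median log2 fold change of 0.05 and the fifth richest in it one of -0.07, with 0 called higher and 39 called lower there. After a correction of each library for GC content, the homeobox list was at -0.17 and the chemosensory list at 0.06 relative to all linked regions.

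Length and density were examined because H3K27me3 domains range from single nucleosomes to whole gene clusters. Regions of up to 1.5 kb had a median log2 fold change of -0.51, those of 5.5 to 20 kb of 0.03 and those over 100 kb of -0.09. The 1372 short regions had a median of 5.33 reads, and 609 of them had the state of young MSCs. The 763 short regions with the state of both ages had a median log2 fold change of -0.09. Regions over 100 kb, 893 in number, were lower in old MSCs in most cases (23.6% higher) and 20.9% were lower at an unadjusted p under 0.05, although 4 were called lower and 1 higher. The length contrast (over 100 kb minus up to 1.5 kb) was -0.32, -0.20 and -0.16 in young and 0.27, 0.28 and 0.09 in old libraries. The difference of 0.44 was as far apart as 3 against 3 libraries can show (exact permutation test, two-sided p = 0.10, the smallest possible). The difference of long minus short regions turned to -0.14 when regions with a mean under 10 reads were left out, and was 0.00 over regions with the state of both ages.

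Regions were next ranked in sixths by reads per kb, a split chosen after the data were seen. The densest sixth, with at least 8.01 reads per kb, had a median log2 fold change of -0.10, and its promoter regions one of -0.11. This class made up 16.7% of autosomal regions and held 45 of the 113 lower calls. Its regions held a median of 342 reads, against 61.3 over all autosomal regions. The second sixth was at 0.06 with 58.1% higher. Dense regions over promoters are where homeobox genes lie: 90 of the 94 homeobox promoter regions were in the densest sixth, and these 90 had a median of -0.21. Of these 90, 60.0% were lower at an unadjusted p under 0.05, against 21.9% of all promoter regions of that sixth. Dense minus sparse, the top minus the bottom sixth, was -0.05, 0.09 and 0.09 in young and 0.06, 0.01 and -0.21 in old libraries. The groups overlapped (exact permutation test, two-sided p = 0.50), and the difference of dense minus sparse regions was -0.09, or -0.01 without old replicate 3.

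Promoter regions as a class had a median log2 fold change of -0.05, with 37.0% higher, 36 called lower and 9 called higher of 5796. Regions within 50 kb of a TSS had 0.02 and those beyond 50 kb 0.00. The contrast of promoter minus distal regions was -0.03, 0.06 and 0.04 in young and 0.02, 0.04 and -0.15 in old libraries, which overlapped (exact permutation test, two-sided p = 0.50). Without old replicate 3 the difference between ages was 0.00, against -0.06 with it. The distal class made up 43.0% of autosomal regions and held 54 of the 113 lower calls.

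**Figure D4:**
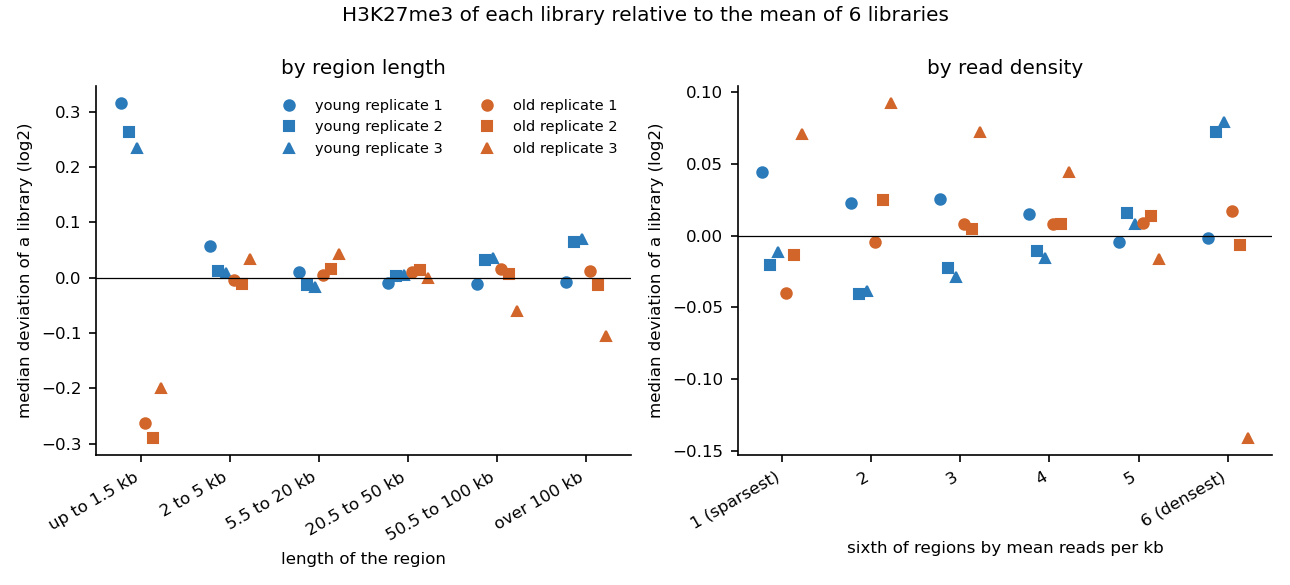
Median deviation of each library from the mean of the 6 libraries (log2, vertical axes) for regions grouped by length (left) and by sixths of mean reads per kb (right). Old libraries lie below young ones in regions of up to 1.5 kb, and old replicate 3 lies lowest at -0.14 in the densest sixth.

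Across chromosomes the mark moved little. Median log2 fold changes ran from -0.03 on chromosome 8 to 0.03 on chromosome 15, with 9 of 19 autosomes below 0 and 10 above. Chromosomes 8, 12 and 9 had the lowest medians (all -0.03), and chromosomes 15, 14 and 18 the highest (0.03, 0.02 and 0.01). The groups were apart on 7 chromosomes, where libraries differed by hundredths of a log2 unit. Chromosome 8 had 5 higher and 7 lower calls among 1456 regions, and chromosome 12 had 1 higher and 11 lower among 1265. Chromosome 4 had 13 calls among 1579 regions, all lower, where 0.492% of autosomal regions were called. Of these 13, 6 lay in the single stretch chr4:154000001-155000000. On chromosome 8, Ppp1r3b and Sorbs2 were each the nearest gene of 2 higher calls. Such counts therefore come in part from single loci.

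**Figure D5:**
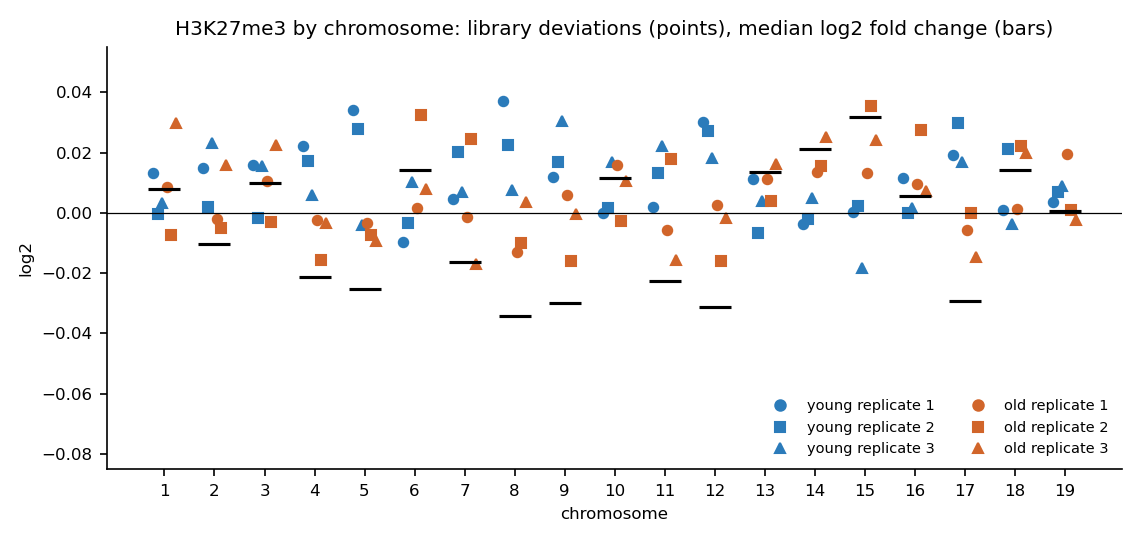
Median log2 fold change of H3K27me3, old over young, of each autosome (black bars) and median deviation of each library from the mean of the 6 libraries (points, log2). Library deviations span -0.02 to 0.04, and the bars run from -0.03 on chromosome 8 to 0.03 on chromosome 15.

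Within chromosomes, changes were next summed over neighbouring regions. Summed over windows of 1 Mb, 30 of 2133 windows were called, or 1.41%, with 22 lower and 8 higher. A window was called on the sum of its regions, so the direction of most of its regions follows in part from the call. Of all autosomal regions 48.98% were higher. The window chr13:72000001-73000000, which holds Irx2, had 296, 270 and 304 in young and 224, 194 and 199 in old libraries (log2 fold change -0.50, adjusted p = 0.0158), and 13 of its 14 regions were lower. At Sstr1 (chr12:58000001-59000000) all 14 regions were lower (-0.57), at Tfap2b and Tfap2d (chr1:19000001-20000000), genes of neural crest factors, all 13 (-0.42), and at St6galnac3 (chr3:153000001-154000000) 24 of 25 (-0.45). The Irx3 window (chr8:91000001-92000000) was at -0.34. These 5 windows had adjusted p = 0.0158. The window of Sall1 (chr8:89000001-90000000) was called lower, at -0.36, with 10 of 11 regions lower and 0 called singly.

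Among higher windows, those of Gm10800 (0.73) and Sfi1 (0.30) held the repeat-rich regions described above. The Piezo2 window was at 0.35 with 13 of 15 regions higher. A window with Glrb and Gria2, subunits of glycine and glutamate receptors (chr3:80000001-81000000), had 27 of 31 regions higher but 0 called, and measured 377, 371 and 374 in young and 433, 455 and 458 in old libraries (0.26, adjusted p = 0.0400). A window with no linked gene, chr8:73000001-74000000, had 2 regions and 0.81. Without young replicate 1, 2 or 3 the called windows numbered 1, 8 and 0, and without old replicate 2 or 3 they numbered 72 and 60.

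H3K27ac of the same cells, measured with other antibody tubes, was read at the changed regions. Of 4946 H3K27ac regions that overlapped an autosomal H3K27me3 region, limma called 9, or 0.182%. Over all 5039 overlapping pairs the median log2 fold change of H3K27ac was -0.03. Of these pairs 46.7% were higher and 491 reached an unadjusted p under 0.05. Over all 5039 pairs, called or not, the fold changes of the 2 marks had a Spearman correlation of -0.22. Where H3K27me3 was called lower, 20 of 28 pairs from 21 H3K27me3 regions had higher H3K27ac in old libraries, with a median of 0.18, and 0 were called by limma and 6 reached an unadjusted p under 0.05. Where H3K27me3 was called higher, 13 of 19 pairs from 16 H3K27me3 regions had lower H3K27ac, with a median of -0.45, and 1 was called and 8 reached an unadjusted p under 0.05.

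The called pair was at Cstf2t, where H3K27ac measured 29.7, 27.1 and 28.9 in young and 19.1, 9.44 and 14.8 in old libraries (-1.01, adjusted p = 0.0320) while H3K27me3 rose. At Eya1 H3K27ac measured 11.8, 9.23 and 15.1 in young and 20.7, 25.2 and 22.4 in old libraries (0.91, adjusted p = 0.0702). The groups were apart in both. Sorbs2 had H3K27ac fold changes of -0.45 and -0.95 at its 2 regions (adjusted p = 0.515 and 0.368). H3K27ac at the 12 kb Meis2 region was at 0.00 (adjusted p = 0.997), and at P4ha2, where H3K27me3 rose, it was at 1.12 (adjusted p = 0.0612). The H3K27ac tubes held cells of the same samples, so the marks are not independent samples.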

How the data were processed

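The deposited H3K27me3 and H3K27ac tables hold a signal per region and library in a unit that the authors named RPKM. Per the labels, Bowtie2, Picard and mm10 (GRCm38) were used, and the region caller was not given in the sources used here. All values were whole multiples of 1 read (tolerance 0.01) over a constant 0.5 kb, so the signal counts reads without division by region length. No value column was left unused (0 columns). Libraries were brought to one scale by relative log expression (RLE), and log2(signal + 0.5) was fitted with limma 3.58.1 in R 4.3.3 (trend, robust, two-sided), with Benjamini-Hochberg adjustment over all 28047 regions. The fold change of regions with few reads is understated by the pseudocount. A deviation is the log2 value of a library minus the mean of the region over 6 libraries. Genes were GENCODE vM21 protein-coding genes, and a promoter region overlaps 1 kb on either side of a TSS. Differences between classes were compared by exact permutation tests over libraries. Named regions were up to 12 per direction with the smallest p, linked to a gene and with groups apart. Genes and windows were up to 5 per direction, lists gave every called member or up to 2, and chromosomes 3 at each end. In simulated data for the old against young comparison over 28047 regions, 89% of 100 regions changed by 1 on the log2 scale and 99% of 100 changed by 2 were recovered, with 9 false calls. The changed regions were drawn only from regions above a read minimum, and all regions shared a common spread. Recovery at regions with few reads, and calls under shifts of a single library, were therefore not covered. Members and lists were chosen with earlier results of these data known. Replicate numbers did not pair the libraries. Alternatives included edgeR 4.0.16 and DESeq2 1.42.0 on recovered reads.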

Additional observations from a re-analysis of the deposited data

How the results depend on the processing

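With 3 libraries a group, calls depended on single libraries, and a call that is lost without a young library is not shown to be smaller. Leaving out 1 library gave 10 to 304 called regions (5 to 40 higher, 4 to 264 lower), 12 to 177 called genes, 0 to 72 called windows, and a share of higher regions of 48.1% to 50.1%. Of the 24 named regions, 16, 15 and 18 were no longer called without young replicates 1, 2 and 3, 23 were no longer called with limma without trend and robust moderation, which shared 10 calls with the main setting, and 0 changed direction in any alternative. Called regions numbered 752 (20 higher, 732 lower) with the signal as deposited, 71 (13 and 58) with a pseudocount of 0.1, 170 lower with a pseudocount of 2, 85 (69 lower) with a mean of at least 10 reads, 34 (0 higher, 34 lower, with 3169 at an unadjusted p under 0.05) with limma without trend and robust moderation, 387 (74 and 313) with edgeR, 87 (67 lower) with DESeq2, which left 10522 adjusted p as NA, and 88 (68 lower) over regions with the state of both ages, an alternative added after seeing the data. Quantile normalization gave 105 (29 and 76).

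The share of higher regions was 29.4% as deposited, 49.9% with TMM, 51.9% with quantile normalization, 49.95% with GC correction, 50.2% with a mean of at least 10 reads, 49.99% with edgeR, 50.05% with DESeq2 and 50.53% over regions of both states. Called genes numbered 453 as deposited, 81 with quantile normalization, 0 without trend and robust moderation, 127 with edgeR, 109 with DESeq2 and 33 from promoter regions only. Called windows numbered 403, 3 without that moderation, 55 with edgeR, 98 with DESeq2 and 9 for windows of 5 Mb. The contrast of long minus short regions reversed to -0.0623 with quantile normalization (exact permutation p = 0.20) and to -0.14 with a mean of at least 10 reads (exact permutation p = 0.50), and that of promoter minus distal regions ranged from -0.0915 to 0.0044 when 1 library was left out and was reversed, at 0.0044, without old replicate 3. The cause of these changes was not tested.

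A replicate block gave 302 called regions (48 higher, 254 lower) and 153 called windows, but the numbers do not pair the libraries: deviations of same-numbered libraries correlated at -0.08 to 0.04, others at -0.13 to 0.13, and 1 of 3 old libraries correlated best with its own number. The medians of the homeobox, Hox, basic helix-loop-helix, cadherin, endothelial, chemosensory, chondrogenic and serpin lists kept their sign relative to all linked regions in all 21 alternatives, and that of cytochrome P450 and related genes changed it in 14. Regions of up to 1.5 kb held a median of 5.33 reads, which limits the precision of their values.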
